A study of Mus musculus with 13 samples.

Results

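Primary muscle cells homozygous for the dICR allele, a deletion of the imprinting control region between Igf2 and H19, were compared before and after 24 hours of differentiation. The members are the 4 libraries labelled as dICR, of 13 in the series: 2 of myoblasts and 2 of 24-hour myotubes, taken by their labels and compared over all genes. The myoblasts came from hind limb muscle of pups at postnatal day 2 to 3, of mixed strain background and dICR/dICR genotype, and grew in F10 medium with 10% calf serum and fibroblast growth factor. The myotubes were such cells of the same genotype and background, moved for 24 hours to DMEM with 1% horse serum. Wild-type myoblasts (n = 4) and wild-type myotubes (n = 5) of the same background and culture serve as a reference, and their spread enters every p-value of the fit over all libraries. The series text gives 2 to 3 replicates a group, fewer than these, and whether some wild-type libraries repeat the same RNA is not stated. The labels give neither the number of animals or cultures behind the dICR libraries nor any link from a myotube library to a myoblast one, and p-values therefore reflect just the spread among these samples, which may be technical. The deletion is in every cell from the start, so an effect of it in the pup and one in culture cannot be told apart.

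Myoblasts are the dividing precursors of muscle fibres. When growth factors are withdrawn they leave the cell cycle, switch on the myogenic factors Myog and Mef2, fuse and build sarcomeres, the contractile units of muscle. In the mouse the imprinting control region keeps Igf2, which encodes a growth factor, silent on the maternal chromosome and H19, a long noncoding RNA, silent on the paternal one, and IGF2 signalling is known to promote myoblast differentiation.

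H19 was low in each of the dICR libraries. Its level in CPM, counts scaled to a common library total, was 53.8 and 71.5 CPM in dICR myoblasts 1 and 2 and 57.5 and 52.4 CPM in dICR myotubes 1 and 2. The lowest of the 9 wild-type libraries held 2345 CPM, and the highest 40495 CPM. H19 thus did not separate the dICR cell types (log2 fold change -0.19 ± 0.88 SE, adjusted p = 0.931, edgeR quasi-likelihood), and with the depth term, described below, the value was 1.52 ± 0.74 (adjusted p = 0.231). In wild type its change was 3.15 within the deep libraries (adjusted p = 0.0159, edgeR), 0.95 within the shallow ones (adjusted p = 0.0538) and 1.38 over all 9 (adjusted p = 0.133). The difference between the genotypes in this change did not pass (adjusted p = 0.585, edgeR).

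The dICR cell types differ in sequencing depth as well. Totals were 10.91 and 6.33 M (mega) counts in the myoblasts and 56.44 and 43.26 M in the myotubes. The series falls into 7 deep libraries (35.56 to 56.44 M) and 6 shallow ones (5.31 to 10.91 M), which the labels do not name, and the labels describe 2 sequencing platforms without saying which library was run on which. Small nucleolar RNA genes took 7.18 and 5.91% of counts in the dICR myoblasts and 0.0573 and 0.0542% in the dICR myotubes, against 2.81 to 4.68% in shallow and 0.028 to 0.177% in deep wild-type libraries. Since no depth set holds both dICR groups, depth set and differentiation cannot be told apart in dICR cells, and no value within a set exists. Wild-type cells have both groups in both sets. A second fit therefore added the depth set as a term. This term takes the shift between deep and shallow libraries from wild type and assumes that it is the same in dICR cells. The wild-type sets also differ in Ddx3y, a Y-linked gene described below, so depth and sex cannot be told apart in that shift. Each result is given from the fit of 4 group means, and with the depth term where that changes it.

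The cultures carried the markers of muscle cells. All 10 markers of differentiating myocytes and myotubes were higher in both dICR myotubes than in both dICR myoblasts, and their summed level was 3648 and 1805 CPM in the myoblasts and 10400 and 20350 CPM in the myotubes. In wild type the sum was 2356 to 11670 CPM in myoblasts and 26780 to 41430 CPM in myotubes, so dICR myotube 2 lay nearer to wild-type myotubes than dICR myotube 1 did, and both lay below them. Myoblast markers summed to 2015 and 1948 CPM in dICR myoblasts and 3477 and 4780 CPM in dICR myotubes. The highest of them was Des, at up to 1854 CPM, which is also in the thin filament and Z-disc list. Chrdl2 was under 1 CPM in all 4 dICR libraries. The sum mixes genes that moved differently, as Pax7 and Myf5 overlapped between the groups and Vcam1 was lower in myotubes (below). Markers of other cells were low: 7 macrophage and leukocyte markers summed to 3.56 to 8.60 CPM over the 4 libraries, 6 endothelial markers to 5.34 to 6.33 CPM and 6 Schwann cell markers to 2.31 to 8.60 CPM, and of 4 erythroid markers Hbb-b1 and Hba-a1 were at 0 counts in all 4. A count of 0 allows up to 3 counts, or 0.474 CPM in dICR myoblast 2, the shallowest of them, for counting error only. The 9 fibroblast markers summed to 189 and 372 CPM in the myoblasts and 399 and 139 CPM in the myotubes, with Dcn, Lum and Thy1 under 1 CPM throughout. The 6 adipocyte markers summed to 35.9 and 91.7 CPM in the myoblasts and 148 and 58.0 CPM in the myotubes, with Adipoq, Plin1 and Cidec under 1 CPM. In neither list did the groups separate. The 7 smooth muscle markers summed to 298 and 165 CPM against 1072 and 2332 CPM; most of this was Acta2, which early myotubes are known to express. In bulk cultures a larger share of differentiated cells and more RNA per cell cannot be told apart.

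Of 16537 genes tested, 24 (0.145%) were called in dICR differentiation at an adjusted p under 0.05 (edgeR quasi-likelihood, Benjamini-Hochberg), 19 higher (0.115%) and 5 lower (0.0302%) in myotubes. With the depth term 1262 genes (7.63%) were called, 793 higher (4.80%) and 469 lower (2.84%), and each of the 24 was included with its direction kept. These shares of 4.80% and 2.84% are the background for each list count given below with the term. DESeq2 called 1199 genes in the fit of 4 groups, and edgeR on the dICR libraries alone called 2002. At an unadjusted p under 0.05 there were 3172 genes in the fit of 4 groups. The count fell to 0 without dICR myoblast 1, 1 without dICR myoblast 2 and 3 without dICR myotube 2, to 15, 12 and 8 without wild-type myoblasts 1, 2 and 3, and rose to 78 without wild-type myotube 3. For the 24 genes the wild-type shift between deep and shallow libraries lay between -1.25 and 0.79 on the log2 scale.

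**Figure D1:**
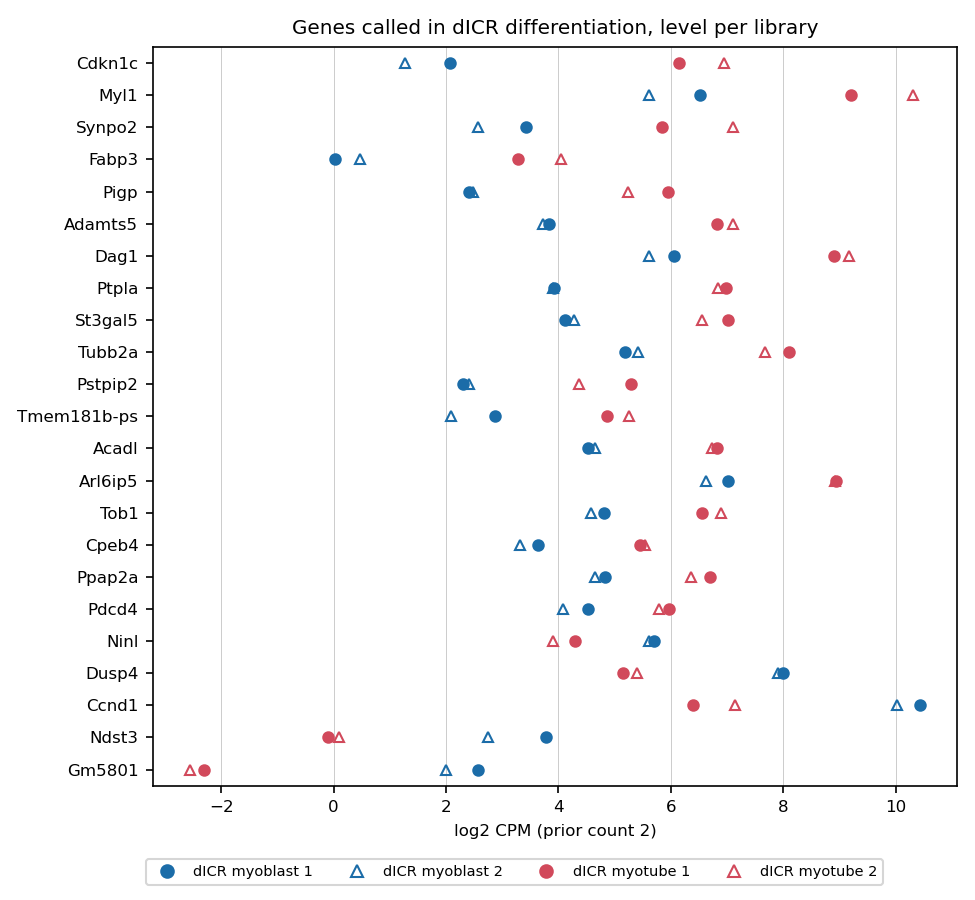
Level of 23 of the 24 called genes in the 4 dICR libraries, as log2 CPM with a prior count of 2 on the horizontal axis, ordered by log2 fold change. Circles and triangles mark replicates 1 and 2, blue myoblasts and red myotubes; the myotube points of the genes called higher lie to the right of both myoblast points, and those of the 5 called lower to the left.

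The gene with the highest log2 fold change among those called was Cdkn1c, which encodes the cell-cycle inhibitor p57 and is itself imprinted, in the distal chromosome 7 region that also holds H19. It stood at 4.14 and 2.35 CPM in dICR myoblasts and 70.4 and 123 CPM in dICR myotubes. The groups were far apart, with a log2 fold change of 4.89 ± 0.79 (SE; edgeR adjusted p = 0.0355). Its wild-type levels were 43.4 to 99.1 CPM in myoblasts and 297 to 1228 CPM in myotubes, so that each dICR myotube library lay below each wild-type one. Among the other CDK inhibitors and pocket proteins, 14 genes tested in all, none was called in either fit. Cdkn1a, which encodes the inhibitor p21, stood at 136 and 46.4 CPM in myoblasts and 331 and 768 CPM in myotubes, with a change of 2.59 ± 0.61 on the log2 scale (adjusted p = 0.0767, edgeR; 0.0656 with the depth term).

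Ccnd1, which encodes the cyclin D1 that drives entry into S phase, moved the other way. It stood at 1390 and 1046 CPM in dICR myoblasts and 83.7 and 140 CPM in dICR myotubes, and its log2 fold change was -3.44 ± 0.54 (edgeR adjusted p = 0.0351). In wild-type cells it was at 1047 to 2224 CPM in myoblasts and 52.6 to 131 CPM in myotubes, so that dICR myotube 2 lay above and dICR myotube 1 within the range of the wild-type ones. Dusp4, a phosphatase that is induced by ERK signalling and acts on MAP kinases, had the smallest adjusted p of the comparison. Its levels were 256 and 241 CPM in myoblasts and 35.6 and 41.9 CPM in myotubes, and the log2 fold change was -2.68 ± 0.27 (edgeR adjusted p = 0.00472). Of the other 3 genes called lower, Ndst3, an enzyme of heparan sulfate synthesis, fell by 3.45 and Ninl, a centrosomal protein gene, by 1.55. Gm5801 fell by 5.40, from 5.86 and 3.91 CPM to 0.127 and 0.0950 CPM; it and Tmem181b-ps have names given to predicted genes or pseudogenes, whose reads may be shared with near-identical copies, so their counts are uncertain.

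Myl1, which encodes the fast skeletal essential myosin light chains, was the 1 member of the 3 contractile lists called in the fit of 4 groups. It stood at 91.2 and 48.6 CPM in dICR myoblasts and 591 and 1264 CPM in dICR myotubes, with a change of 3.73 ± 0.49 on the log2 scale (edgeR adjusted p = 0.0151). Dag1, which encodes dystroglycan, the membrane link between dystrophin and the matrix, stood at 66.1 and 49.0 CPM in myoblasts and 480 and 575 CPM in myotubes, with a change of 3.20 ± 0.46 (adjusted p = 0.027). Among the deep wild-type libraries Myl1 rose by 2.26 and Dag1 by 2.43, and the difference between the genotypes did not pass for either (adjusted p = 0.495 for both, edgeR). Synpo2, an actin-binding Z-disc protein gene, rose by 3.55 and the muscle fatty acid binding protein gene Fabp3 also by 3.55, the latter from 0.938 and 1.30 CPM to 9.59 and 16.5 CPM. Ptpla, an older name of the fatty acid elongation gene Hacd1, rose by 3.01 and Acadl, an enzyme of fatty acid oxidation, by 2.19. Adamts5, a matrix protease, rose by 3.20, Pigp, an enzyme of GPI anchor synthesis, by 3.21, St3gal5, the GM3 ganglioside synthase, by 2.61 and the tubulin gene Tubb2a by 2.60. Tob1, known as an antiproliferative gene, rose by 2.04, the translation regulator gene Cpeb4 by 2.02 and Pdcd4, an inhibitor of translation initiation, by 1.56. Pstpip2, Tmem181b-ps, Arl6ip5 and Ppap2a rose by 2.57, 2.55, 2.09 and 1.80.

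Of these 24 genes, 23 had the same direction in wild type over all 9 libraries and 21 were also called there. The background in wild type was 3158 of 16537 genes (19.1%), 1466 higher (8.86%) and 1692 lower (10.2%). The size of the change was larger in dICR than in wild type for 23 of the 24, which were chosen for their change in dICR, so that this count is a description. None of the 16537 genes was called for the difference between the genotypes in the fit of 4 groups (edgeR; 1643 at an unadjusted p under 0.05, and 72 by DESeq2), and 16 (0.0968%) were with the depth term, 8 in each direction (0.0484%). These 16 included the fast-fibre genes Actn3 and Tnni2, and the Y-linked Ddx3y, which were chosen for mention after their values were seen. Ddx3y tells male from female cells and stood at 14.5 and 63.1 CPM in the dICR myoblasts and 104 and 20.5 CPM in the dICR myotubes, while wild-type libraries held 0.15 to 0.46 CPM if shallow (4 libraries) and 27.6 to 176 CPM if deep (5 libraries). Its dICR change was thus 0.69 ± 2.21 in the fit of 4 groups and -6.95 ± 1.23 with the depth term, which subtracts the wild-type gap. The wild-type depth sets therefore differ in a sex-linked gene too. Depth and sex cannot be told apart in the shift that the term takes for any gene. Xist, the female-specific RNA, stood at 428 and 57.5 CPM in the dICR myoblasts and 37.9 and 182 CPM in the dICR myotubes. The dICR libraries with more Ddx3y had less Xist, so the replicates of each dICR group differed in these sex-linked genes; the part of this in the results was not tested.

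Promoter sequence from RefSeq (GRCm38.p6) was read for the 250 bases before the start site. The motif searched was CAGCTG, an E-box that myogenic factors such as MYOD and MYOG are known to bind; it is its own reverse complement, so one search covers both strands. It was present in 15.05% of the 12782 tested genes that matched the table. Of the 19 genes called higher in both fits 12 matched, and 3 (25%) held it, Myl1, Cpeb4 and Pdcd4. Of genes called higher with the depth term 148 of 599 (24.71%) held it, and of those called lower 51 of 369 (13.82%). Among the 3 lists of sarcomere and calcium-handling genes, 24 of 58 matched members (41.38%) held it; these lists were put together for this search after their values had been seen. Myl1 is shown because it is the member of these lists called in both fits. The skeletal actin gene Acta1 and the muscle creatine kinase gene Ckm are shown as genes called with the depth term that hold the motif, and the embryonic myosin gene Myh3 as one called with the term that does not. Of the windows read for Myog and Actc1, neither holds it. The windows are chr1:66945057-66945306 on the minus strand for Myl1, chr8:123894776-123895025 on the minus strand for Acta1, chr7:19410844-19411093 on the plus strand for Ckm and chr11:67078050-67078299 on the plus strand for Myh3, each ending at the base before the start site, with the motif in capitals.
Myl1: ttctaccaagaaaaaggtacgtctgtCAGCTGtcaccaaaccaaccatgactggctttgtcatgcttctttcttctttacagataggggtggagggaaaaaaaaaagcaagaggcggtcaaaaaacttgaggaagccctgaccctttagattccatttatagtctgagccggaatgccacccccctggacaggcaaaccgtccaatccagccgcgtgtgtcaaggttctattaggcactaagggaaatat
Acta1: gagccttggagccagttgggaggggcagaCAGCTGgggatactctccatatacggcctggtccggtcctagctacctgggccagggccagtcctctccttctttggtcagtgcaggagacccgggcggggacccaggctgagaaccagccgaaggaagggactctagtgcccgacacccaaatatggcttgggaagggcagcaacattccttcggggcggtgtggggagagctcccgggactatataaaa
Ckm: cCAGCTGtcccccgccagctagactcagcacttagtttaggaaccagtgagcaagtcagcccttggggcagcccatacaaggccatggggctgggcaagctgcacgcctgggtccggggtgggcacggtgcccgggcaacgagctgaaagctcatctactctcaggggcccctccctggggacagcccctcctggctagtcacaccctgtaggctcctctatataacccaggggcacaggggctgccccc
Myh3: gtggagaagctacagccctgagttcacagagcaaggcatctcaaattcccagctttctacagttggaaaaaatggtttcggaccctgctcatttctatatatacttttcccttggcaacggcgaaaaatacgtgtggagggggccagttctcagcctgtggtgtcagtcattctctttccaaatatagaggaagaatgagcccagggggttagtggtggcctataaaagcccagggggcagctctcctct
Counted from the start site, the first base of the motif lay at -224 in Myl1, -221 in Acta1 and -249 in Ckm. The cell-cycle element TTTGAA, or TTCAAA on the other strand, which occurs in many promoters of mitotic genes, was present in 13.22% of all matched genes, in 13 of 52 (25%) of the replication and mitosis lists and in 4 of 58 (6.90%) of the sarcomere and calcium-handling lists. None of these matches shows binding.

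The transcription factors that drive the programme were next. All 17 tested members of the myogenic transcription factor list had a positive log2 fold change in dICR cells, with a median of 1.53 against 0.00 over all genes tested. None passed in the fit of 4 groups, and 4 were called higher with the depth term. With the term 15 of the 17 were positive, and the median was 1.92. In 13 of 17 both myotube libraries lay above both myoblast libraries, where 30.0% of all genes did. Myog, which commits myoblasts to differentiation, stood at 402 and 151 CPM in myoblasts and 1253 and 1669 CPM in myotubes, with a log2 fold change of 2.40 ± 0.99 (adjusted p = 0.227; 0.05003 with the depth term, edgeR, neither past the threshold). Mef2c, its partner, stood at 192 and 96.7 CPM against 350 and 655 CPM, with 1.80 ± 0.62 in the fit of 4 groups (adjusted p = 0.181) and 2.85 ± 0.47 with the depth term (adjusted p = 0.00661). Myod1, which is made already in dividing myoblasts, stood at 185 and 255 CPM against 509 and 765 CPM, with 1.53 ± 0.59 (adjusted p = 0.208). Its change was 1.08 with the depth term, and in wild type 1.60 in the deep and -0.19 in the shallow libraries. Tead4 and Hdac9, which act with these factors, had changes of 2.06 and 2.09 and were called with the depth term.

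Pax7 and Myf5, markers of undifferentiated cells, overlapped between the dICR groups. Pax7, the transcription factor that marks satellite cells, stood at 56.2 and 39.0 CPM in dICR myoblasts and 38.4 and 47.8 CPM in dICR myotubes, and Myf5, an early myogenic factor, at 64.5 and 34.0 CPM and 30.6 and 77.7 CPM. The groups overlapped for both genes, with log2 fold changes of -0.14 ± 0.53 (adjusted p = 0.909) and 0.14 ± 0.57 (adjusted p = 0.921, edgeR). With the depth term these were -0.97 ± 0.49 (adjusted p = 0.241) and -0.29 ± 0.64 (adjusted p = 0.824, edgeR). In wild type both were lower in myotubes, Pax7 by a log2 fold change of -1.87 in the deep and -1.91 in the shallow libraries (adjusted p = 0.0432 and 8.47e-04, edgeR), Myf5 by -2.27 and -1.91. The difference between the genotypes did not pass for either gene (adjusted p = 0.495 for both, edgeR). Over the satellite cell and proliferating myoblast list the median was 0.22 in 21 genes tested, with both myotubes above both myoblasts in 9 and below in 6 (30.0 and 29.1% of all genes). With the depth term 2 were called higher, the adhesion genes Cdh15 and Itga7, and 2 lower, where 4.80% and 2.84% of all genes were. The lower ones were Vcam1, from 172 and 152 CPM to 54.4 and 44.3 CPM, and Hmga2, a chromatin protein of growing cells. Hmga2 went from 246 and 213 CPM to 80.9 and 80.1 CPM.

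**Figure D2:**
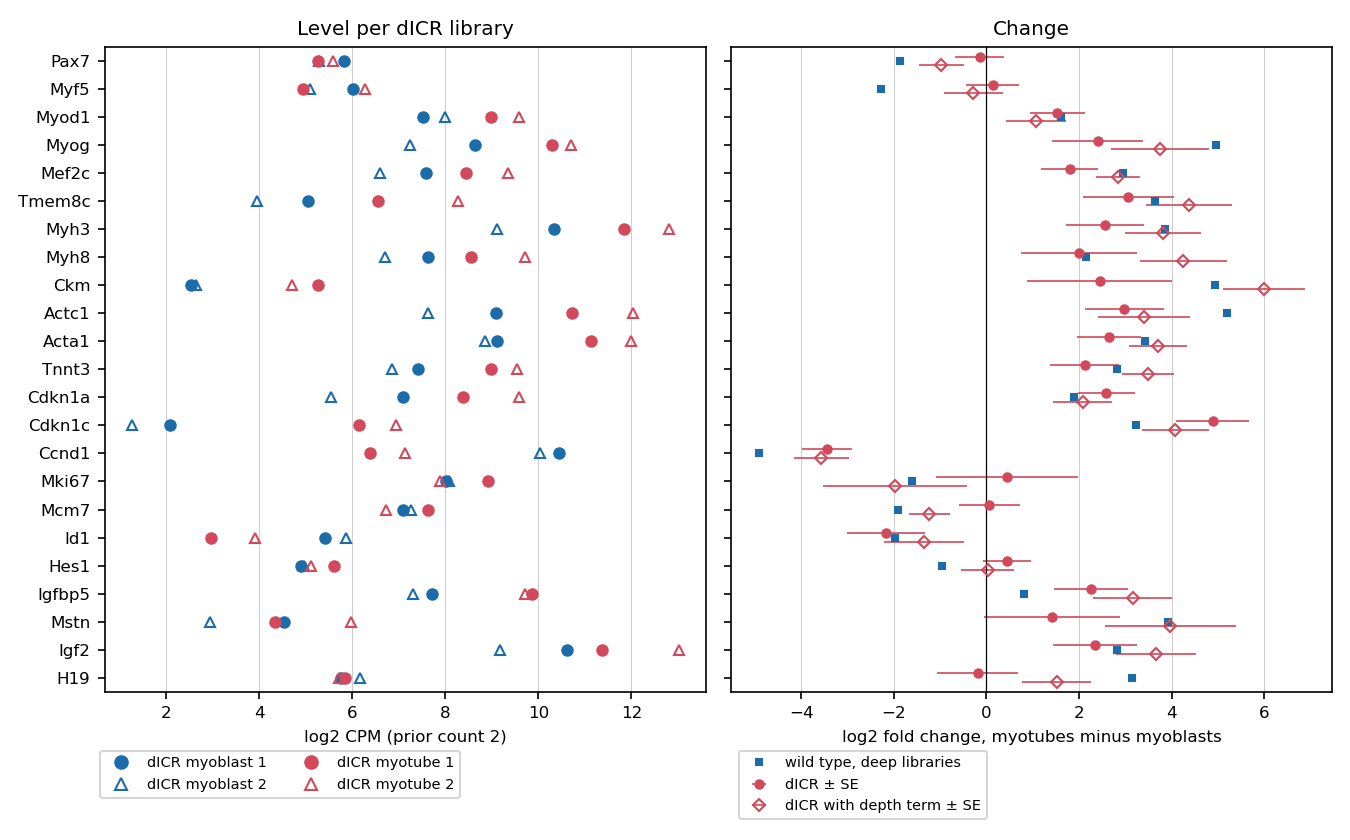
Left, log2 CPM (prior count 2) of 23 genes in the 4 dICR libraries, with circles and triangles for replicates 1 and 2; right, the log2 fold change of myotubes minus myoblasts in dICR cells without (filled circles) and with (open diamonds) the depth term, each with its SE, and in the deep wild-type libraries (squares). Pax7, Myf5 and H19 lie near 0 in dICR cells without the depth term, at -0.14, 0.14 and -0.19, while Cdkn1c and Ccnd1 lie far from it in both fits, at 4.89 and -3.44 without the term.

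Fusion genes came next in the programme. Of 25 tested, 8 were called higher and 0 lower with the depth term and none without it, and the median change was 0.58. Tmem8c, the older name of the fusion protein gene Mymk, stood at 32.8 and 15.5 CPM in myoblasts and 93.8 and 311 CPM in myotubes, a log2 fold change of 3.06 ± 0.98 (adjusted p = 0.157) and 4.37 ± 0.93 with the depth term (adjusted p = 0.0167, edgeR). Gm7325, the older name of Mymx, whose small product acts with it, stood at 13.8 and 8.47 CPM against 53.02 and 64.2 CPM, with 2.39 ± 1.10 (adjusted p = 0.261) and 4.49 ± 0.87 with the term (adjusted p = 0.0119). In each case dICR myotube 1 held less than dICR myotube 2.

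Genes of the contractile machinery had the largest list medians. Among 22 sarcomeric myosins and their partners the median was 1.98, 1 was called in the fit of 4 groups (Myl1) and 17 with the depth term, none lower in either. Among 35 thin filament and Z-disc genes the median was 1.78, with 0 called in the fit of 4 groups and 29 higher with the term. Among 24 genes of excitation-contraction coupling, the release of calcium upon membrane depolarisation, it was 1.70, with 0 and 20 called higher. Both dICR myotubes lay above both dICR myoblasts in 17 of 22, 32 of 35 and 21 of 24 genes, and in 30.0% of all genes. Myh3, the embryonic myosin heavy chain, stood at 1289 and 550.5 CPM in myoblasts and 3664 and 7220 CPM in myotubes, and Myh8, the perinatal one, at 199 and 104 CPM and 373 and 845 CPM. Acta1 stood at 555 and 466 CPM against 2261 and 4094 CPM, and Actc1, the cardiac actin of early muscle, at 547 and 197 CPM against 1687 and 4195 CPM. The troponin gene Tnnt3 stood at 171 and 116 CPM against 507 and 745 CPM. These 5 genes had log2 fold changes of 2.57 ± 0.85, 2.01 ± 1.25, 2.64 ± 0.69, 2.98 ± 0.86 and 2.12 ± 0.75, none past the threshold in the fit of 4 groups (lowest adjusted p = 0.103, for Acta1, edgeR). With the depth term all of them passed but Actc1 (adjusted p = 0.0568). Of the calcium-handling genes the sarcoplasmic calcium pump gene Atp2a1 stood at 49.0 and 37.7 CPM against 216 and 284 CPM, and the calcium channel subunit gene Cacng1 at 13.1 and 7.43 CPM against 36.0 and 82.4 CPM.

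The shift that the depth term takes for these genes rests on wild-type myoblasts that differ from each other. The mean log2 CPM over the thin filament and Z-disc list was 5.69 and 5.67 in the 2 deep wild-type myoblasts and 7.65 and 7.73 in the 2 shallow ones. The dICR myoblasts, both shallow, were at 6.25 and 5.49, near the deep wild-type myoblasts and not near the shallow ones. The dICR myotubes were at 7.12 and 8.10, and wild-type myotubes at 7.84 to 8.47 in the deep and 9.07 and 9.57 in the shallow libraries. The median shift between sets over the list was -1.32, so that the dICR median moved from 1.78 to 3.28 with the term, while within wild type it was 2.81 in the deep and 1.72 in the shallow libraries. Whether the shift in wild type applies to dICR cells was not tested.

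**Figure D3:**
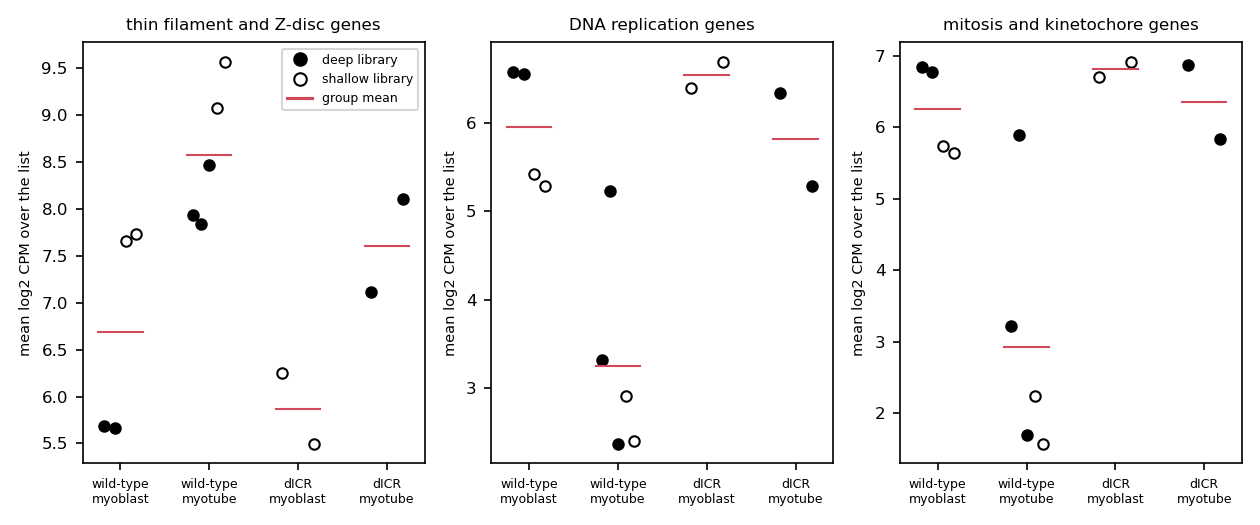
Mean log2 CPM over 3 gene lists in each of the 13 libraries, by genotype and cell type; filled points are deep libraries, open points shallow ones and red lines group means. For thin filament and Z-disc genes the dICR myoblasts (6.25 and 5.49) lie near the deep wild-type myoblasts, and for the replication and mitosis lists the dICR myotubes lie at 6.34 and 5.29 and at 6.87 and 5.84, where the highest wild-type myotube has 5.23 and 5.90.

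Other muscle genes followed. Of 15 dystrophin complex genes 1 was called in the fit of 4 groups, Dag1, and 7 with the term, among them the sarcoglycan genes Sgca and Sgcb with changes of 1.79 and 1.51. Of 14 acetylcholine receptor and neuromuscular junction genes 4 were called higher with the term and none without. One was Chrng, the fetal receptor subunit, at 99.0 and 65.0 CPM in myoblasts and 261 and 562 CPM in myotubes. Of 24 creatine kinase, glycolysis and glycogen genes 10 were called higher with the term, with a median of 1.15 without it. Ckm was low at this time, at 5.71 and 6.12 CPM in myoblasts and 38.4 and 25.9 CPM in myotubes, with a log2 fold change of 2.44 ± 1.57 (adjusted p = 0.404) and 5.99 ± 0.88 with the term (adjusted p = 0.00412, edgeR). Its wild-type shallow myoblasts stood at 65.4 and 72.9 CPM and the deep ones at 2.65 and 2.08 CPM. The mitochondrial respiratory chain list had a median of 0.25 over 26 genes, and the 3 called with the term were the muscle-type cytochrome oxidase subunits Cox6a2, Cox7a1 and Cox8b.

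The genes that copy and segregate chromosomes were read in 2 lists. The median change was -0.86 over 30 DNA replication genes and -0.54 over 30 mitosis and kinetochore genes, none of them called in the fit of 4 groups. The change was negative in 26 and 23 of the 30 genes. Both dICR myotubes lay below both dICR myoblasts in 18 and 15 genes and above in 1 and 2 (29.1 and 30.0% of all genes). Mki67 and Mcm7, given below whatever their values, had the sign opposite to their list medians. With the depth term the medians were -1.82 and -2.11, and 1 gene passed, Rrm2, the ribonucleotide reductase subunit, which stood at 285 and 194 CPM in myoblasts and 139 and 78.2 CPM in myotubes. In wild type 26 of the 30 replication genes and 11 of the 30 mitosis genes were called lower over all libraries, against 10.2% of all genes. Within the deep set these counts were 6 and 0 (9.36% of all genes), and within the shallow set 28 and 30 (15.7%). Mki67, the common marker of dividing cells, stood at 258 and 269 CPM in dICR myoblasts and 482 and 237 CPM in dICR myotubes, so that dICR myotube 1 held more than either myoblast library (0.45 ± 1.53, adjusted p = 0.901, edgeR). Mcm7, a subunit of the replication helicase, stood at 137 and 154 CPM against 199 and 106 CPM (0.07 ± 0.65, adjusted p = 0.969). Both genes changed sign with the depth term, to -1.97 and -1.23, without passing. In 4 of the 5 wild-type myotube libraries Mki67 was at 5.09 to 14.0 CPM and in wild-type myotube 2 at 246 CPM. Over the mitosis list dICR myotubes 1 and 2 had a mean log2 CPM of 6.87 and 5.84, wild-type myotube 2 had 5.90 and the other wild-type myotubes 1.57 to 3.22. The difference between the genotypes passed for neither Mki67 nor Mcm7 (adjusted p = 0.642 and 0.495, edgeR).

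Of 18 G1 cyclins, kinases and E2F factors, Ccnd1 was the 1 called in the fit of 4 groups. With the term Ccne2, a cyclin of the G1 to S transition, was also lower, from 56.0 and 43.7 CPM to 27.2 and 10.7 CPM, and Ccnd3, the cyclin D that differentiated muscle keeps, was higher, from 48.9 and 74.8 CPM to 191 and 259 CPM. The 30 clustered histone genes had a median of -0.27 with 17 members negative, and with the depth term -1.98 with 28 negative. None was called in either fit. Of 25 ribosome biogenesis genes 9 were called lower with the depth term and 0 without. The median was -0.33 with 18 members negative, and with the term -1.04 with 24 negative. Both dICR myotubes lay below both dICR myoblasts for 12 members and above for 5 (29.1 and 30.0% of all genes). Among the 9, Npm1, chosen after its values were seen, went against the list median without the term. It stood higher in both dICR myotubes, at 1317 and 933 CPM against 291 and 349.5 CPM (1.81 ± 1.42). Its sign turned to -1.74 with the term, since its wild-type shift between deep and shallow libraries was 3.56.

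Genes downstream of ERK, the kinase that growth factors activate in dividing myoblasts, included 2 of the 5 genes called lower. Of 24 tested, Ccnd1 and Dusp4 fell in both fits, and Etv4, Dusp5 and Fosl1 were called lower with the depth term. Etv4, a transcription factor induced by fibroblast growth factor, stood at 99.75 and 113 CPM in myoblasts and 4.20 and 8.51 CPM in myotubes, with a change of -4.07 ± 0.97 (adjusted p = 0.0798; 0.0283 with the term, edgeR). Dusp5, another phosphatase induced by ERK, stood at 52.4 and 25.02 CPM against 2.22 and 3.61 CPM (-3.73 ± 1.02, adjusted p = 0.116). The growth medium of the myoblasts contained fibroblast growth factor, per the labels, and no such factor is named for the differentiation medium. Serum and depth set differed between the dICR cell types as well, and the part of the medium in these changes was not tested. Over the list the median was -0.19 with 12 of 24 members negative, and with the term -0.84 with 18 negative. Both dICR myotubes lay below both myoblasts for 11 members and above for 4 (29.1 and 30.0% of all genes).

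Id1, an inhibitor of the myogenic factors, stood at 42.8 and 58.5 CPM in dICR myoblasts and 7.72 and 14.9 CPM in dICR myotubes (-2.16 ± 0.84, adjusted p = 0.21). Id2 stood at 70.2 and 103 CPM against 35.5 and 22.8 CPM and was called with the depth term, as was Dll1, a Notch ligand gene, which was higher. Hes1, a Notch target, stood at 29.7 and 31.2 CPM against 48.4 and 34.8 CPM (0.45 ± 0.51, adjusted p = 0.655), and over the 20 Id and Notch genes the median was 0.27 and, with the term, -0.20. The transforming growth factor list, with 29 genes, had a median of 0.45, and of 0.09 with the term. With the term 3 genes were called higher, Tgfb3, Nog and Acvr2a, where 4.80% of all genes were. Mstn, the inhibitor of muscle growth, overlapped between the groups, at 23.1 and 7.56 CPM in myoblasts and 20.2 and 62.6 CPM in myotubes (1.42 ± 1.47, adjusted p = 0.613).

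**Figure D4:**
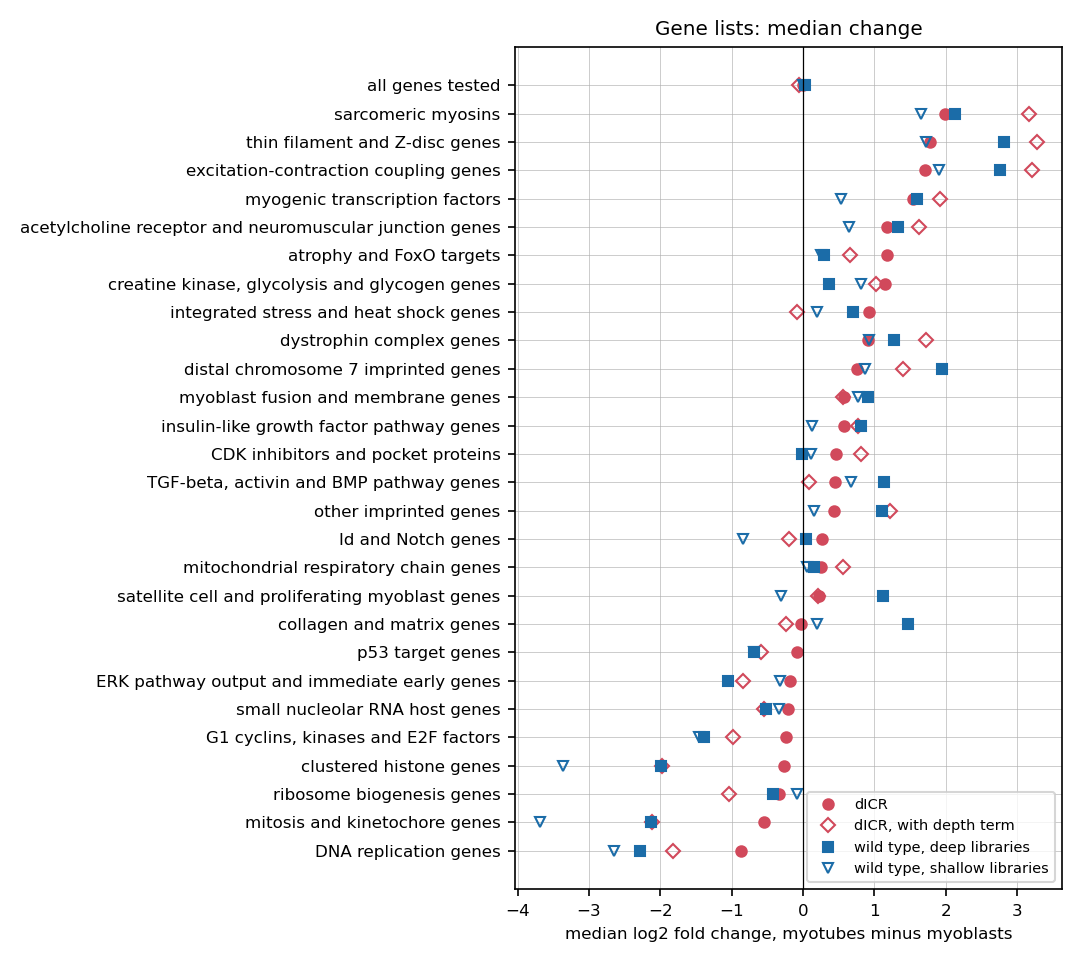
Median log2 fold change of myotubes minus myoblasts over the tested members of each of 27 gene lists and over all genes, for dICR cells without (filled circles) and with (open diamonds) the depth term and for wild type within the deep (squares) and shallow (triangles) libraries. The contractile lists lie at 1.70 to 1.98 in dICR cells without the term, and the replication list lies lowest, at -0.86.

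Igf2, the growth factor gene whose imprinting depends on the deleted region, did not pass in the fit of 4 groups. It stood at 1571 and 579 CPM in dICR myoblasts and 2630 and 8294 CPM in dICR myotubes, so that both myotubes lay above both myoblasts but the replicates of each group differed widely. The log2 fold change was 2.35 ± 0.91 (adjusted p = 0.209, edgeR), and 3.67 ± 0.87 with the depth term (adjusted p = 0.0253). Wild-type Igf2 was at 188 and 317 CPM in deep and 1138 and 1461 CPM in shallow myoblasts, and at 1346 to 2548 CPM in myotubes. It rose there within both sets, by 2.83 and 0.84 (adjusted p = 0.0108 and 0.0264, edgeR), and the difference between the genotypes did not pass (adjusted p = 0.724). The sources used here do not state the strand setting of the counts, so reads of Igf2 and of its antisense partner cannot be told apart.

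The wider insulin-like growth factor list held 21 tested genes, of which 18 had a positive change, with a median of 0.57. None passed in the fit of 4 groups and 6 were called higher with the term: Igf1, Igf2, the receptor gene Igf2r, the binding protein genes Igfbp3 and Igfbp5 and the adaptor gene Grb10. Igfbp5, which binds IGF2 outside the cell, stood at 210 and 159 CPM in dICR myoblasts and 933 and 838 CPM in dICR myotubes, a change of 2.26 ± 0.80 (adjusted p = 0.187) and of 3.16 ± 0.85 with the term (adjusted p = 0.0421, edgeR). In wild type it was lower in myotubes of the shallow set, at -1.49 (adjusted p = 0.00631, edgeR), and had 0.81 in the deep set (adjusted p = 0.336). The difference between the genotypes did not pass (adjusted p = 0.495). Igf1 was low throughout, at 1.25 and 0.912 CPM in myoblasts and 7.19 and 12.6 CPM in myotubes.

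Imprinted genes beyond Igf2 and H19 were read as well. The distal chromosome 7 list, with 17 genes tested, includes Cdkn1c and the neighbouring muscle genes Tnnt3 and Tnni2. In it 1 gene was called in the fit of 4 groups and 5 with the depth term, all higher. The median was 0.76, and 1.40 with the term. Of 31 tested imprinted genes elsewhere, 5 were called higher with the term and none without. The median was 0.43, and 1.22 with the term. Peg10, a paternally expressed gene derived from a retrotransposon, stood at 30.7 and 26.7 CPM in dICR myoblasts and 203 and 275 CPM in dICR myotubes (3.06 ± 0.74, adjusted p = 0.0812; 0.0293 with the term, edgeR). Its wild-type changes were 0.90 in the deep and 0.55 in the shallow libraries, neither past the threshold. Magel2 was near the limit of detection, at 0.547 and 0 CPM in myoblasts and 1.64 and 4.59 CPM in myotubes.

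The stress list held 25 tested genes with a median of 0.92, which turned to -0.08 with the depth term (11 positive, 14 negative), and small heat shock protein genes made up 4 of the 5 called higher with the depth term. Hspb1, a chaperone of the actin skeleton, stood at 7.43 and 8.47 CPM in dICR myoblasts and 104 and 212 CPM in dICR myotubes, a log2 fold change of 4.31 ± 0.78 that did not pass (adjusted p = 0.0508), and 3.14 ± 0.62 with the term (adjusted p = 0.0127, edgeR). Hspb2, Hspb3, Hspb7 and Xbp1 were also called higher with the term and Shmt2 lower. Of 31 collagen and matrix genes, 2 were called higher (Thbs1, Postn) and 2 lower (Lamb1, Col8a1) with the term, and none without it. Over all genes 4.80% and 2.84% were, so both shares lie above the background, on 2 genes each. The median was -0.03. Lamb1, a laminin chain gene, stood at 682 and 703 CPM in myoblasts and 170 and 168 CPM in myotubes (-2.04 ± 0.39, adjusted p = 0.0569). Of 17 atrophy and FoxO targets 3 were called higher with the term, the ubiquitin ligase genes Trim63 and Fbxo40 and the autophagy gene Map1lc3a. Their list had a median of 1.17, and of 0.66 with the term. Of 22 p53 targets Sesn1 was called higher and Plk3 and Perp lower with the term. Over all genes 4.80% and 2.84% were, so the share higher is near the background. The share lower is above it, on just these 2 genes. The median was -0.09, and -0.59 with the term. Perp was at or under 1.09 CPM in all 4 libraries.

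Across genes, the dICR change was set beside 2 quantities from wild type, as a description, since genes are not independent replicates. The wild-type libraries are not part of the dICR means, but both changes share the filter and scaling. Over 14603 genes the dICR change had r = 0.38 (Spearman rho 0.489) with the change within the deep wild-type libraries, with the same sign in 68.75%. Within the deep set 2916 of 14654 genes were called in wild type (19.9%), 1545 higher (10.5%) and 1371 lower (9.36%), and in the shallow set 3782 of 12134 (31.2%), 1878 higher (15.5%) and 1904 lower (15.7%). Among the 2913 genes called in the deep set and tested in dICR cells r was 0.692 (rho 0.767), with the same sign in 88.60%. The dICR change also had r = 0.581 (rho 0.293) over 16537 genes with the wild-type shift between deep and shallow libraries. That shift is not free of differentiation genes, as the thin filament list above had a median shift of -1.32. The ends of the distribution lay along that shift. Of the 618 genes with a dICR log2 fold change under -4, 84 were small nucleolar RNA genes (of 104 tested), 1 was called in the fit of 4 groups and the median shift was -3.47. Of the 148 over 4, 1 was called and the median shift was 4.16.

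**Figure D5:**
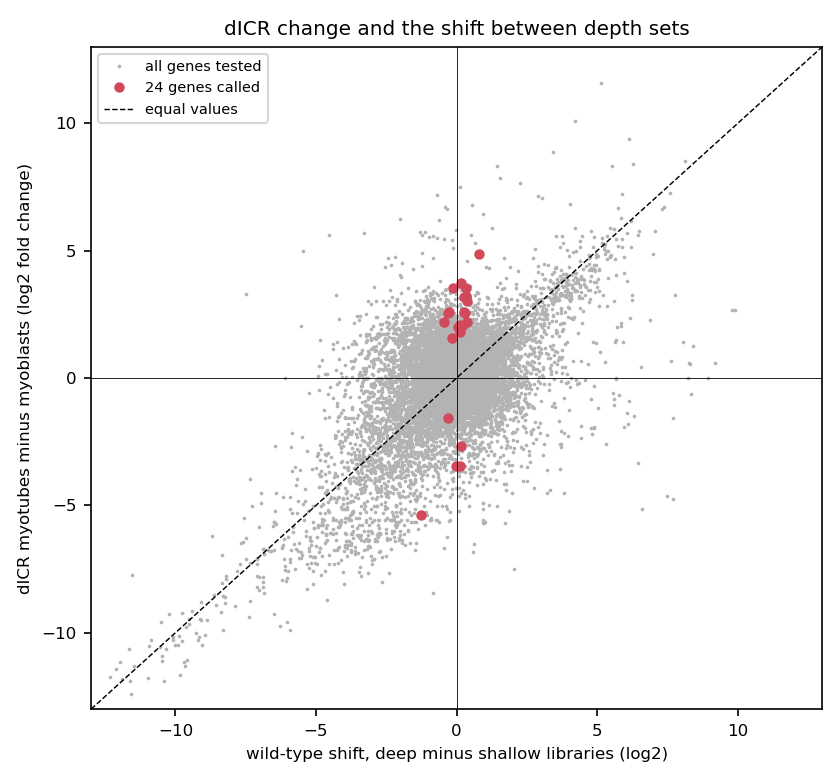
Each point is 1 of the 16537 genes tested: the horizontal axis is the shift between deep and shallow wild-type libraries and the vertical axis the dICR change of myotubes minus myoblasts, both as log2 fold changes, with the 24 called genes in red and a dashed line at equal values. Many genes at both ends lie near the dashed line, while the called genes lie between -1.25 and 0.79 on the horizontal axis.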

How the data were processed

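RNA depleted of ribosomal RNA was sequenced from 13 libraries. The authors deposited raw counts per gene and library; TopHat2, HTSeq and the mm9 assembly are named per the submitters' processing notes. The sources used here give no versions, annotation or strand setting. It holds 23366 gene symbols, 27 of them in the form of dates and left as deposited.

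Low genes were removed by filterByExpr on the groups (edgeR 4.0.16, R 4.3.3; count 10, total 15 as minimums), leaving 16537. All 13 libraries, scaled by TMM, entered 1 quasi-likelihood fit of 4 group means, in which the dICR pairs share their spread with wild type. Two-sided tests were adjusted over all genes tested (Benjamini-Hochberg) and called under 0.05. SE is the absolute log2 fold change divided by the square root of F. CPM are adjusted by TMM; log2 CPM used a prior count of 2. Further fits added the depth set (divided at 20 M counts) as a term, stayed within a wild-type set, or used DESeq2 1.42.0. The script was tested on simulated data. A depth of 5.31 to 56.44 M counts limits the precision of low genes.

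The members, the 27 gene lists and 9 marker lists were chosen with earlier results of these data known. Genes were named by a rule, which took H19, Igf2 and a fixed set. It also took the 10 highest and 10 lowest among genes called in both fits with a mean of at least 5 CPM. From each list it took up to 3 genes called in the fit of 4 groups. Outside the rule, the other list members called with the depth term were added after their values were seen. So were the other called genes, Actn3, Tnni2, Gm7325, Npm1 and Xist. The single values of 1 called gene are not reported here.

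The labels do not say whether their numbers pair the dICR libraries. Deviations from the group means of same-numbered libraries had r = -0.388. With 2 libraries a group the crossed numbers must then give 0.388, so these values cannot decide the pairing.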

Additional observations from a re-analysis of the deposited data

How the results depend on the processing

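Counts of genes called in dICR differentiation depended on the libraries and the model fitted. Higher and lower genes numbered 19 and 5 in the fit of 4 groups, 793 and 469 with the depth term, 581 and 618 by DESeq2, 35 and 6 with no filter on low counts, 17 and 14 with RLE size factors, 18 and 15 with counts thinned to the shallowest library, and 1228 and 774 with the 4 dICR libraries only. With small RNA genes removed they were 19 and 5. With the replicate block they were 0 and 0 (edgeR; 3400 genes at an unadjusted p under 0.05), and the labels do not say that the numbers pair libraries. With the numbers crossed, a pairing added after seeing the data, 186 and 64 were called. Also added after seeing the data, the dICR libraries with the deep wild-type libraries gave 1334 and 673, and with the shallow ones 1915 and 1384.

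The 24 genes called with and without the depth term were 41 with no filter, 667 by DESeq2, and 31 and 33 under RLE factors and thinning. Wild-type differentiation gave 3158 genes, 5267 with the depth term and 2376 under the replicate block. The difference between the genotypes gave 0 genes, 16 with the depth term, 72 by DESeq2, and 816 and 1259 with the deep or the shallow wild-type libraries only. Leaving out 1 library at a time, where a lone library is assumed to vary like the others, gave 0 to 53 higher, 0 to 25 lower, 0 to 78 in both fits, 1769 to 3574 in wild type and 0 for the difference between the genotypes.

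Signs turned for some genes and lists, most of them near 0 but not Npm1 (1.81) or the stress list (0.92). With the depth term H19 was 1.52, Myf5 -0.29, Mki67 -1.97, Mcm7 -1.23, Ddx3y -6.95 and Npm1 -1.74, and the medians of the Id and Notch list and the stress list were -0.20 and -0.079. With thinning Myf5 was -0.0354 and Mcm7 -0.11. Mcm7 was also -0.0714 with RLE factors and by DESeq2, -0.0022 under the replicate block, -0.0029 with the block crossed, -0.0282 with the dICR libraries only and -0.0544 with the shallow wild-type libraries. With no filter the medians of the collagen and p53 lists were 0.10 and 0.025. Leaving out 1 library at a time gave H19 -0.38 to 0.033, Pax7 -0.38 to 0.15, Myf5 -0.69 to 0.67, Mki67 -0.16 to 0.87, Mcm7 -0.46 to 0.44, Ddx3y -0.93 to 2.10, Perp -3.50 to 0.33 and Xist -2.68 to 0.94, and medians of -0.75 to 0.047 for the ERK list, -0.43 to 0.33 for collagen, -0.58 to 0.56 for p53 targets, -1.09 to 0.38 for histones and -0.32 to 0.061 for small nucleolar RNA hosts. The cause was not tested.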
